A study of Homo sapiens with 4 samples.

Results

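Homologous recombination and Fanconi anemia genes were followed in HCT116 cells treated with HJ-23. The set was a list of 39 genes for the repair of DNA double-strand breaks and interstrand crosslinks, matched by symbol to Ensembl identifiers, and a gene was kept if it had 10 or more counts in 2 or more of the 4 libraries. All 39 listed genes were found and kept, out of 20263 genes listed in the count tables, and all 39 also passed the filter of the test, which kept 14062 genes. HCT116 is an established human colorectal carcinoma line, labelled as wild type in genotype, and known for deficient DNA mismatch repair with wild-type p53. One group had 24 hours of the compound HJ-23 at 30 µM, and the other had 24 hours of 0.1% DMSO, the solvent control. Each group had 2 RNA-seq libraries, and no other agent or allele is named for either. The treatment field of both treated samples reads HJ-25 where their titles and the design text read HJ-23, so the compound is named here by the titles. Whether the 2 libraries of a group were separate cultures is not stated, so each p-value reflects only how far these libraries differ from one another, and that difference may be technical.

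Homologous recombination repairs a broken chromosome by copying the sister chromatid. Break ends are recognised and trimmed by the MRE11 complex, the kinases ATM and ATR signal their presence, and the BRCA proteins load the recombinase that searches for the matching strand. The Fanconi anemia proteins act where both strands are joined by a crosslink: a core complex attaches ubiquitin to the FANCD2 and FANCI pair, which brings in nucleases that cut the crosslink out. Many of these genes are transcribed mostly in S and G2 phase, and in bulk RNA fewer cells in such a phase and less RNA per cell cannot be told apart.

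Library totals ran from 29769568 to 34831207 counts. Of 11 markers of colorectal epithelium, EPCAM, KRT8, KRT18, KRT19, CDH1 and CDX2 were at 13.4 CPM or more in every library. The others of that list, KRT20, CDH17, CDX1, VIL1 and LGALS4, were below 0.5 CPM and thus near absent. CPM is the count divided by the TMM-adjusted library size, expressed on the usual CPM scale. The leukocyte genes PTPRC, CD3E and MS4A1 had 0 counts in all libraries, as did the fibroblast genes COL1A2, DCN and THY1. Single genes of both lists were present, CD68 at 34.8 to 51.0 CPM and COL1A1 at 55.1 to 63.3 CPM.

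No member passed edgeR's quasi-likelihood test at an adjusted p below 0.05, against 0.0853% of all genes tested, and with so few calls across the genome that count says little about the members. At an unadjusted p below 0.05, 3 members were lower in HJ-23 (7.69%, against 5.25% of all genes) and 0 were higher (against 6.77%). The 3 were FANCD2, FANCI and BRCA2. Both HJ-23 libraries lay below both DMSO libraries for 10 members (25.6%, against 21.2% of all genes), namely FANCD2, FANCI, BRCA2, FANCB, EME1, FANCM, CHEK2, FANCC, UBE2T and SLX4. They lay above for 6 (15.4%, against 24.8%), namely RAD51D, FANCE, FANCF, RAD51C, CHEK1 and WRN. The other 23 members overlapped between groups.

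The median log2 fold change of the members, HJ-23 over DMSO, was -0.093, against 0.0086 over all genes tested, and single members ran from -0.79 to 0.62. Of the 39, 30 had a negative value, against 49.0% of all genes. That count depended on the processing: with each library's trend on transcript GC content and length removed, 21 were negative, against 49.3% of all genes, and the median was -0.14. The median also moved with single libraries, to -0.28 when HJ-23 replicate 1 was left out and to -0.225 when DMSO replicate 1 was. Leaving out HJ-23 replicate 2 gave -0.0345. The median standard error of a member was 0.20. The 95% confidence interval of the log2 fold change lay between -1 and 1 for 28 members, so a change as large as 2-fold lay outside the interval for those, and not for the other 11.

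**Figure D1:**
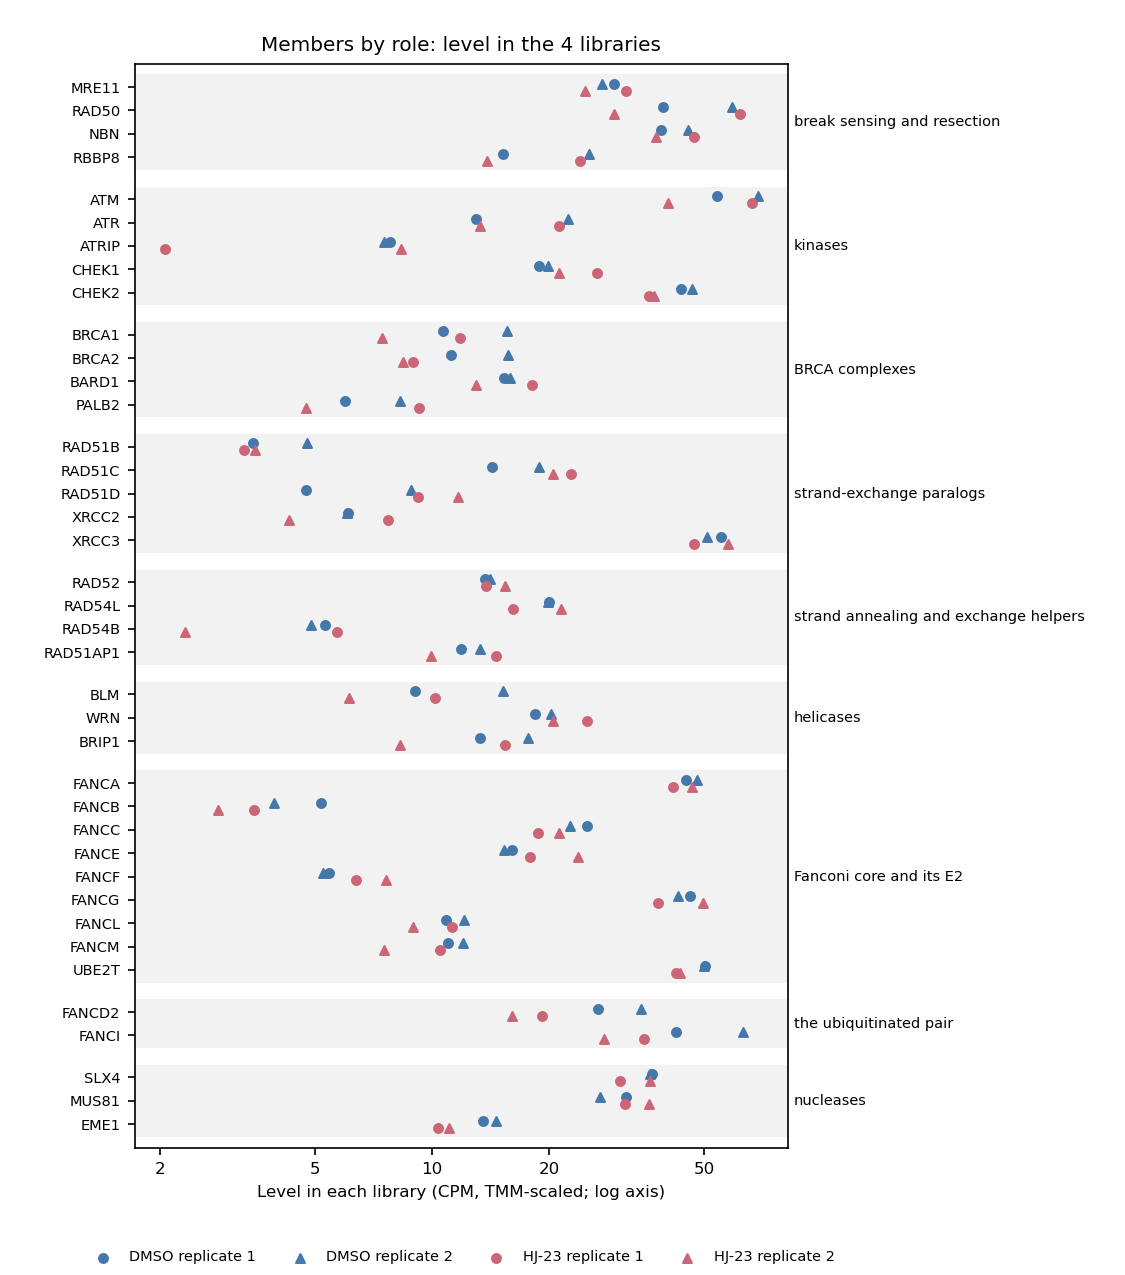
Level of each of the 39 members in each library (CPM on a log axis), grouped by role; circles are replicate 1 and triangles replicate 2, blue DMSO and red HJ-23. FANCD2 and FANCI show both red symbols to the left of both blue symbols, whereas for RAD50, ATR, RBBP8 and PALB2 the 2 libraries of each group are far apart and the groups interleave.

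The FANCD2 and FANCI pair, the 2 proteins that receive ubiquitin from the Fanconi core complex and hold the crosslinked DNA, had the lowest log2 fold changes of the list. FANCD2 (ENSG00000144554) was at 26.8 and 34.4 CPM in DMSO replicates 1 and 2 and at 19.2 and 16.1 CPM in HJ-23 replicates 1 and 2. Every treated library was thus below every control library. The log2 fold change was -0.79 (SE 0.20, 95% interval -1.29 to -0.30, unadjusted p = 0.00769), and the adjusted p over all genes was 0.279 with edgeR. With DESeq2 FANCD2 was lower at an adjusted p of 0.0439, as were 1.11% of the 13476 genes to which DESeq2 gave an adjusted p, and it was the only member DESeq2 called. Leaving out single libraries gave values between -0.96 and -0.63, and the GC content and length correction gave -0.68 (edgeR adjusted p = 0.126).

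FANCI (ENSG00000140525) was at 42.3 and 63.0 CPM in the DMSO libraries and at 35 and 27.7 CPM in the HJ-23 libraries. The groups did not overlap, but the 2 control libraries differed 1.49-fold from each other. Its log2 fold change was -0.75 (SE 0.25, 95% interval -1.35 to -0.15, unadjusted p = 0.0226; adjusted p = 0.355, edgeR), and -0.46 without DMSO replicate 2, the library with the highest level. With the GC content and length correction it was -0.64. FANCD2 and FANCI therefore had like values in direction and size, 57.7% and 59.5% of the DMSO mean, without either passing over all genes with edgeR.

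The promoter of FANCD2 is shown because this gene had the lowest fold change, that of BRCA2 because it was the third member past the unadjusted threshold, and those of FANCA, FANCC and XRCC2 because they are the other members whose window holds the same kind of match. The sequences are from RefSeq on GRCh38.p14, 250 bases before to 50 bases after the gene start, 5′ to 3′ on the gene's strand. Capitals mark matches to the E2F consensus, searched on both strands as TTTCCCGC, TTTCGCGC, TTTGCCGC and TTTGGCGC, and in FANCC also the letters TTTGAA near the window's first base. The windows are chr3:10026187-10026486 on the plus strand for FANCD2, chr13:32315258-32315557 on the plus strand for BRCA2, chr16:89816598-89816897 on the minus strand for FANCA, chr9:95317660-95317959 on the minus strand for FANCC and chr7:152676092-152676391 on the minus strand for XRCC2.
FANCD2: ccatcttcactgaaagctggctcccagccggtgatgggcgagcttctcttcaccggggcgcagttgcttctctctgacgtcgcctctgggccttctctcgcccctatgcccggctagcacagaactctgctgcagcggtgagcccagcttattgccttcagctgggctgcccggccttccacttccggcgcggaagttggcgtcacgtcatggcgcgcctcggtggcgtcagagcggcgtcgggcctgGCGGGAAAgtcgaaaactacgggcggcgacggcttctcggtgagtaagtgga
BRCA2: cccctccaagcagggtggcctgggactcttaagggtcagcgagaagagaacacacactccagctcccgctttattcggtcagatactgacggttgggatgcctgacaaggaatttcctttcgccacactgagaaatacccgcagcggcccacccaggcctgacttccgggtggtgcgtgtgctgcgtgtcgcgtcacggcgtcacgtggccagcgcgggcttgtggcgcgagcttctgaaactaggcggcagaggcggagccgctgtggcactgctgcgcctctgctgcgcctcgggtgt
FANCA: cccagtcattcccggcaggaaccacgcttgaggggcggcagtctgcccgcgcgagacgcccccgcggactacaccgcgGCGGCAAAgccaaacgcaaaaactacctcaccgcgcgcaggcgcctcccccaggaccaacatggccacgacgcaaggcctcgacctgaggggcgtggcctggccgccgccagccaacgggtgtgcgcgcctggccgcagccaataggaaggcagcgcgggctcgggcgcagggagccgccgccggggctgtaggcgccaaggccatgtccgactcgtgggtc
FANCC: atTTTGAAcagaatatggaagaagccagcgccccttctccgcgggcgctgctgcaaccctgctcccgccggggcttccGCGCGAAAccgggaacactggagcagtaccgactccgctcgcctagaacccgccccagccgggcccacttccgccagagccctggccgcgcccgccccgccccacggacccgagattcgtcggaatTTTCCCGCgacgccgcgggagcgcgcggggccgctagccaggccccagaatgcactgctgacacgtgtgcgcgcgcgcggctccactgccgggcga
XRCC2: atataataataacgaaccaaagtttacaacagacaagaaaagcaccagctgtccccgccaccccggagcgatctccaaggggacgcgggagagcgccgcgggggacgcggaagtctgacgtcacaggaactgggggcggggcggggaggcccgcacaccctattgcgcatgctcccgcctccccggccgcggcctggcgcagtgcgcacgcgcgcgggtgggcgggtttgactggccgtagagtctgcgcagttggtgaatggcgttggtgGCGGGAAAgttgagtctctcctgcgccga

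In FANCD2 the capitals, GCGGGAAA, begin 2 bases before the annotated start, and the same letters begin 21 bases after the start in XRCC2. In this window of BRCA2 these letters do not occur. Over the 35 members with an entry, 4 of 47 promoter windows (8.5%) held an E2F match, in FANCA, FANCC, FANCD2 and XRCC2, against 3.3% of 35116 promoters of the same length 4.7% of those of genes with 10 or more counts in 2 libraries and 17.2% of the 87 windows of other repair genes. FANCC, with 2 matches in the window shown and 0 in its other window, had a log2 fold change of -0.25. Both its HJ-23 libraries lay below both DMSO libraries, as did those of FANCD2. In all, 10 members lay so (25.6%, against 21.2% of all genes). FANCA and XRCC2, with 1 match each, had values of -0.075 and -0.015 and overlapped between groups. The cell cycle homology letters TTTGAA were in 4 of the 47 windows (8.5%, against 15.2% of all promoters and 10.4% of those of genes with 10 or more counts in 2 libraries), those of ATM, BRIP1, FANCC and UBE2T. Of the windows of other repair genes, 13.8% held them. The letters CCAAT, not marked above, were in 22 of the 47 windows (46.8%) and in 46.0% of those of other repair genes. They were in 34.6% of all promoters and 34.4% of those of genes with 10 or more counts in 2 libraries. A match describes letters in a window and is no evidence of binding. FANCI, NBN, WRN and RAD54B had no entry.

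Among the members that sense and trim break ends, MRE11, RAD50 and NBN form the complex that binds the ends, and RBBP8, also called CtIP, starts the trimming. All 4 had fold changes near 0 (log2 from -0.11 to 0.010) and all 4 overlapped between groups. MRE11 was at 29.3 and 27.4 CPM in DMSO and at 31.6 and 24.7 CPM in HJ-23. RAD50 was at 39.3 and 59.0 CPM in DMSO and at 61.8 and 29.4 CPM in HJ-23, so both the highest and the lowest value came from treated libraries. NBN was at 38.8 and 45.6 against 47.3 and 37.7 CPM. RBBP8 was at 15.2 and 25.4 against 24.1 and 13.9 CPM, again with each group spanning almost the whole range. The value of RAD50 is uncertain for a further reason: 79.7% of its exon bases in GENCODE 29 lie under ENSG00000283782, a gene on the same strand, whose counts were 261 and 34 in DMSO and 281 and 21 in HJ-23.

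The kinase ATM, which is activated by broken ends, was at 54.1 and 68.8 CPM in DMSO and at 66.6 and 40.5 CPM in HJ-23. ATR, which responds to single-stranded DNA at stalled forks, was at 13.0 and 22.4 against 21.2 and 13.3 CPM. For both kinases the spread within each group exceeded the difference between group means. CHEK1, the main effector kinase of ATR, was higher in both treated libraries, at 18.9 and 19.9 CPM in DMSO and 26.6 and 21.2 CPM in HJ-23 (estimate 0.30 on the log2 scale, SE 0.18, adjusted p = 0.541, edgeR). CHEK2, the effector kinase of ATM, lay the other way, at 43.6 and 46.5 against 36.1 and 37.3 CPM (-0.30, SE 0.15, adjusted p = 0.478, edgeR). Neither passed, and with the GC content and length correction CHEK1 was at 0.40 (unadjusted p = 0.0130) and CHEK2 at -0.23 (unadjusted p = 0.0685). Without HJ-23 replicate 1 CHEK1 was at 0.11.

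ATRIP, the partner that brings ATR to single-stranded DNA, had the largest standard error of the list. It was at 7.82 and 7.55 CPM in DMSO and at 2.06 and 8.34 CPM in HJ-23, which is 243, 221, 73 and 287 counts. The low value was confined to HJ-23 replicate 1, and the log2 fold change of -0.57 (SE 0.63, 95% interval -2.18 to 1.05) became 0.098 without that library and -1.92 without HJ-23 replicate 2. TREX1, an exonuclease gene on the same strand, covers 27.9% of the exon bases of ATRIP. TREX1 had 63 and 183 counts in DMSO and 221 and 322 in HJ-23. How the authors' counting divided reads between ATRIP and TREX1 was not tested.

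Among the BRCA complexes, BRCA2, which loads the recombinase onto trimmed DNA, was at 11.2 and 15.7 CPM in DMSO and at 8.94 and 8.46 CPM in HJ-23. The treated libraries were close to each other and below both controls. Its log2 fold change was -0.63 (SE 0.22, 95% interval -1.17 to -0.079, unadjusted p = 0.0312; adjusted p = 0.374, edgeR). This estimate was -0.39 without DMSO replicate 2 and -0.23 (unadjusted p = 0.312) with the GC content and length correction. The BRCA2 transcript is one of the longest of the list, at 11986 bases, and among the lowest in GC content, at 36.3%.

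BRCA1, a ubiquitin ligase that promotes end trimming, was at 10.7 and 15.6 CPM in DMSO and at 11.8 and 7.47 CPM in HJ-23 (estimate -0.45 on the log2 scale, SE 0.30, 95% interval -1.18 to 0.28). BARD1, its obligate partner, had the same mean in both groups, 15.6 CPM, from 15.3 and 15.9 against 18.1 and 13.0 CPM. PALB2, the bridge between BRCA1 and BRCA2, was at 5.99 and 8.27 against 9.28 and 4.74 CPM. The estimate for BRCA1 ran from -0.84 to -0.18 as single libraries were left out. In BRCA1, BARD1 and PALB2 the groups overlapped, and HJ-23 replicate 1 was above HJ-23 replicate 2 in each.

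The strand-exchange paralogs RAD51B, RAD51C, RAD51D, XRCC2 and XRCC3 help to build and steady the recombinase filament, in 2 complexes that share RAD51C. RAD51D had the highest log2 fold change of all members. It was at 4.76 and 8.82 CPM in DMSO and at 9.22 and 11.7 CPM in HJ-23, so the groups just failed to overlap while the controls differed 1.85-fold. The estimate was 0.62 (SE 0.32, unadjusted p = 0.102; adjusted p = 0.480, edgeR), ranging from 0.25 without DMSO replicate 1 to 1.11 without DMSO replicate 2. With the GC content and length correction it was 0.93 (unadjusted p = 0.0384, edgeR). That correction took 9988 bases as the length of RAD51D, and its value with a shorter transcript was not tested.

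RAD51C was at 14.3 and 18.9 CPM in DMSO and at 22.8 and 20.5 CPM in HJ-23, above both controls in both treated libraries (0.38, SE 0.20, adjusted p = 0.481, edgeR), with 0.20 when DMSO replicate 1 was left out. XRCC2 was at 6.08 and 6.05 against 7.70 and 4.30 CPM, and RAD51B at 3.48 and 4.78 against 3.30 and 3.52 CPM. These and XRCC3, at 55.2 and 50.9 against 47.3 and 57.8 CPM, overlapped between groups. Of the exon bases of XRCC3, 76.7% are shared with KLC1 on the opposite strand, and KLC1 was at 137 to 154 CPM, so without a stated strand setting the level of XRCC3 is uncertain. To a lesser degree this also holds for RAD54L, FANCA, FANCL, EME1, MUS81 and FANCF, which share 25.1%, 23.6%, 18.7%, 16.4%, 14.1% and 11.3% of their exon bases with genes on the opposite strand.

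The genes for strand annealing and exchange showed no difference beyond the spread of their libraries, though with 2 libraries a group small changes could not be detected. RAD52, which anneals complementary strands, had the smallest standard error of these 4, at 13.7 and 14.1 CPM in DMSO and 13.8 and 15.4 CPM in HJ-23 (95% interval -0.35 to 0.49). RAD54L, a motor protein of strand exchange, was at 20 and 19.9 against 16.2 and 21.5 CPM. RAD51AP1, a stimulator of strand pairing, was at 11.9 and 13.3 against 14.6 and 9.97 CPM. RAD54B, the relative of RAD54L, had 165 and 143 counts in DMSO and 202 and 80 in HJ-23, a 2.45-fold gap between the treated libraries, and 59.1% of its exon bases lie under FSBP on the same strand.

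Of the helicases, BLM, which dissolves recombination intermediates, was at 9.08 and 15.2 CPM in DMSO and at 10.2 and 6.13 CPM in HJ-23 (estimate -0.57 on the log2 scale, SE 0.35). BRIP1, the BRCA1-bound helicase also called FANCJ, was at 13.3 and 17.7 against 15.4 and 8.28 CPM (-0.39, SE 0.33). In both, the groups overlapped and HJ-23 replicate 2 was the lowest library. Leaving out single libraries moved BLM between -1.002 and -0.17 and BRIP1 between -0.92 and -0.0345, with the lowest value of each when HJ-23 replicate 1 was left out. WRN, the helicase mutated in Werner syndrome, was at 18.4 and 20.3 against 25.1 and 20.5 CPM, just above the controls (0.24, SE 0.18; 0.36 with the GC content and length correction, unadjusted p = 0.0215, and 0.067 without HJ-23 replicate 1).

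In the Fanconi core complex and its E2 enzyme the members differed among themselves. FANCB, part of the catalytic subcomplex, was at 5.18 and 3.93 CPM in DMSO and at 3.50 and 2.82 CPM in HJ-23 (estimate -0.53 on the log2 scale, SE 0.26, adjusted p = 0.461, edgeR). It rested on 97 to 161 counts per library, and the estimate was -0.32 without DMSO replicate 1. FANCL, the ubiquitin ligase subunit, was at 10.9 and 12.1 against 11.3 and 8.95 CPM, and UBE2T, the ubiquitin-conjugating enzyme that works with it, at 50.4 and 50.1 against 42.4 and 43.3 CPM. UBE2T had the closest replicates of these, and its estimate of -0.23 (edgeR, SE 0.15, adjusted p = 0.552) did not pass.

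FANCE and FANCF, 2 members of the FANCC subcomplex, were higher in both treated libraries. FANCE, which contacts FANCD2, was at 16.1 and 15.3 CPM in DMSO and 17.9 and 23.7 CPM in HJ-23 (0.40, SE 0.20, adjusted p = 0.469, edgeR). FANCF, an adaptor of the core, was at 5.44 and 5.26 against 6.37 and 7.61 CPM (0.39, SE 0.20). Without HJ-23 replicate 2 FANCE was at 0.16 and FANCF at 0.23, and with the GC content and length correction FANCE was at 0.23 and FANCF at 0.46. FANCC itself lay the other way, at 25 and 22.6 against 18.8 and 21.2 CPM (-0.25, SE 0.17), so the estimates of genes in the same subcomplex had opposite signs, and none passed. FANCA and FANCG, which form another subcomplex, had log2 fold changes of -0.075 and -0.016, and FANCM, the translocase that anchors the core to DNA, one of -0.35 (SE 0.22), from 11 and 12 against 10.5 and 7.53 CPM. FANCM was at -0.16 without HJ-23 replicate 2 and at -0.14 with the correction.

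Of the nuclease genes, EME1, the partner of MUS81, was lower in both treated libraries, at 13.5 and 14.6 CPM in DMSO and 10.4 and 11.1 CPM in HJ-23 (-0.38, SE 0.17, unadjusted p = 0.0742; adjusted p = 0.454, edgeR). MUS81, the catalytic subunit, was at 31.5 and 27.0 against 31.4 and 36.1 CPM and overlapped (0.21, SE 0.18). SLX4, the scaffold that holds several nucleases, was at 36.8 and 36.4 against 30.5 and 36.3 CPM, where HJ-23 replicate 2 was at the level of the controls. With the GC content and length correction MUS81 was at 0.0165 (unadjusted p = 0.881) and EME1 at -0.40 (unadjusted p = 0.0262).

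**Figure D2:**
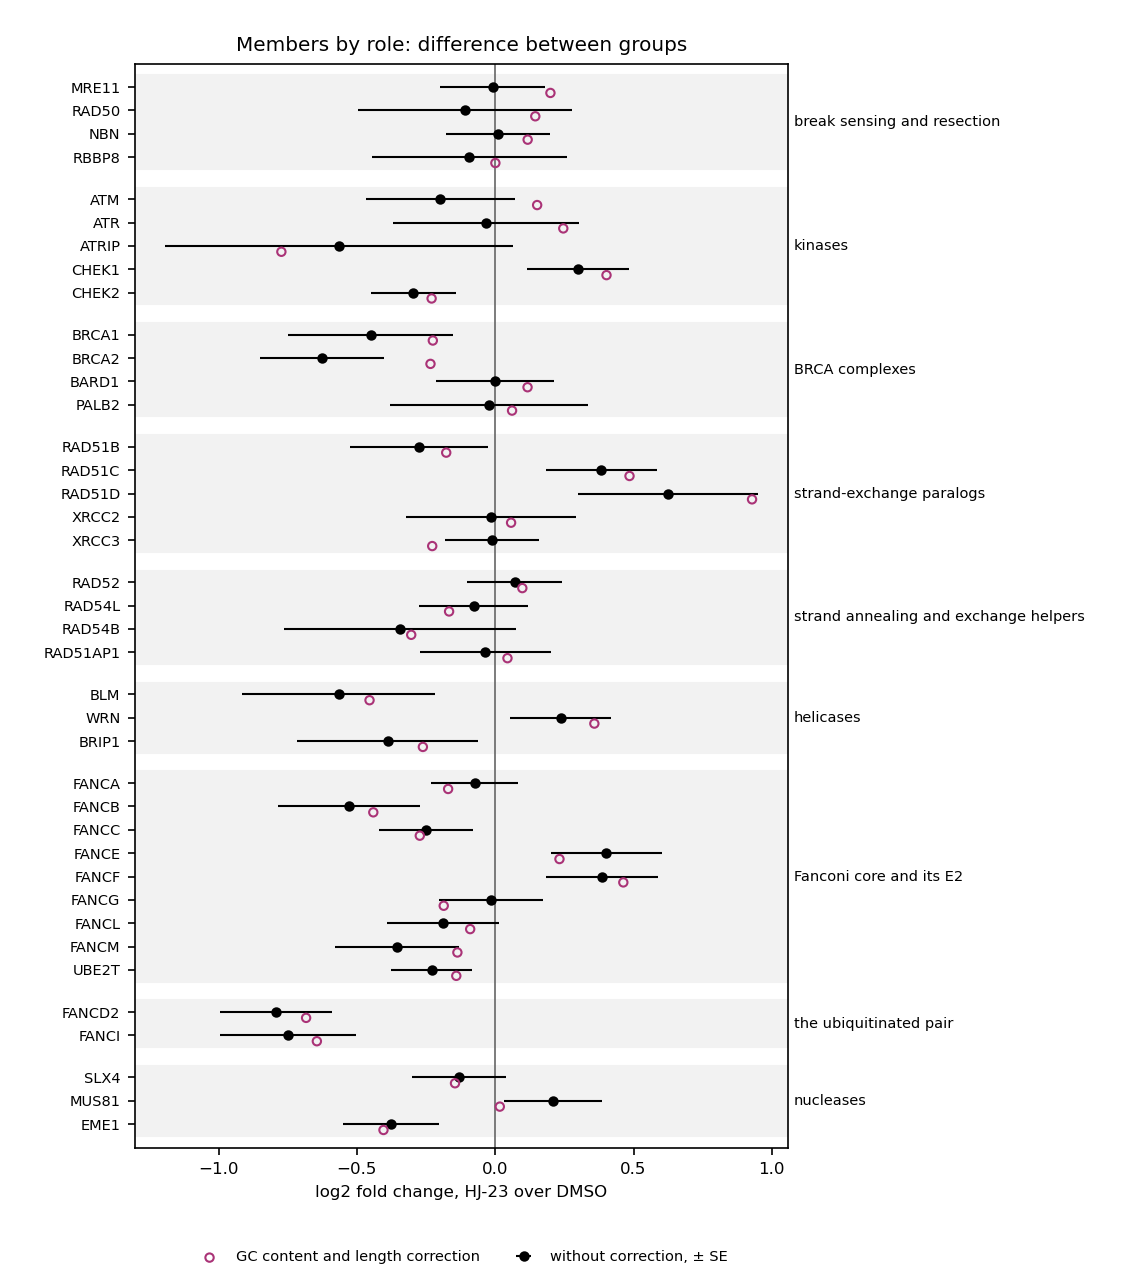
Log2 fold change of each member, HJ-23 over DMSO, grouped by role; black points with bars are edgeR estimates ± SE (95% intervals are wider), and open circles are estimates after removing each library's trend on transcript GC content and length. FANCD2 and FANCI lie lowest, at -0.79 and -0.75, and move little with the correction, while BRCA2 moves from -0.63 to -0.23.

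Levels compared per length of transcript differed widely between members. UBE2T was highest, at 55.5 and 55.1 CPM per kilobase in DMSO and 46.7 and 47.7 in HJ-23, followed by CHEK2 with a mean of 20.7 over the 4 libraries and XRCC3 with 17.5. Lowest were RAD51D with 0.864, BRCA2 with 0.923 and FANCB with 1.28 CPM per kilobase. BRCA1, at 1.57, ranked 32 of 39 from the top, so both BRCA genes stood low in mRNA level per length. The length is that of the longest protein-coding transcript in GENCODE 29, which is 9988 bases for RAD51D, and a shorter transcript would give a higher level.

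For some members the libraries of the same group differed widely. HJ-23 replicate 1 minus replicate 2 was -1.79 for ATRIP, 1.13 for RAD54B and 1.06 for RAD50, on log2(CPM + 0.5). The log2 fold change between groups ran from -0.79 to 0.62. It averages over 2 libraries a group, which makes it smaller, so the 2 measures cannot be ranked against each other. DMSO replicate 2 was above DMSO replicate 1 and HJ-23 replicate 1 above HJ-23 replicate 2 for 19 members (48.7%). The same held for 33.1% of all genes tested and for 55.9% of the 68 other repair genes, so it was not particular to the members. Among the 19 members were FANCD2 and FANCI, all 4 genes of the BRCA complexes and all 3 helicases. The differences within groups went with the GC content of the transcript. Of the 29 members under 50% GC, 23 were higher in HJ-23 replicate 1 than in replicate 2, with a median log2 difference of 0.34. Of the 10 members at 50% or more, XRCC3, RAD54L, ATRIP, FANCA, FANCC, FANCE, FANCG, SLX4, MUS81 and EME1, 0 were, with a median of -0.27. Across the 39 members Spearman's rho between GC content and that difference was -0.75, and across 14047 genes it was -0.64, as a description of these 2 libraries. Between the DMSO libraries, 23 of the 29 members under 50% GC and 2 of the 10 others were higher in replicate 2, with a rho of -0.36 across members.

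**Figure D3:**
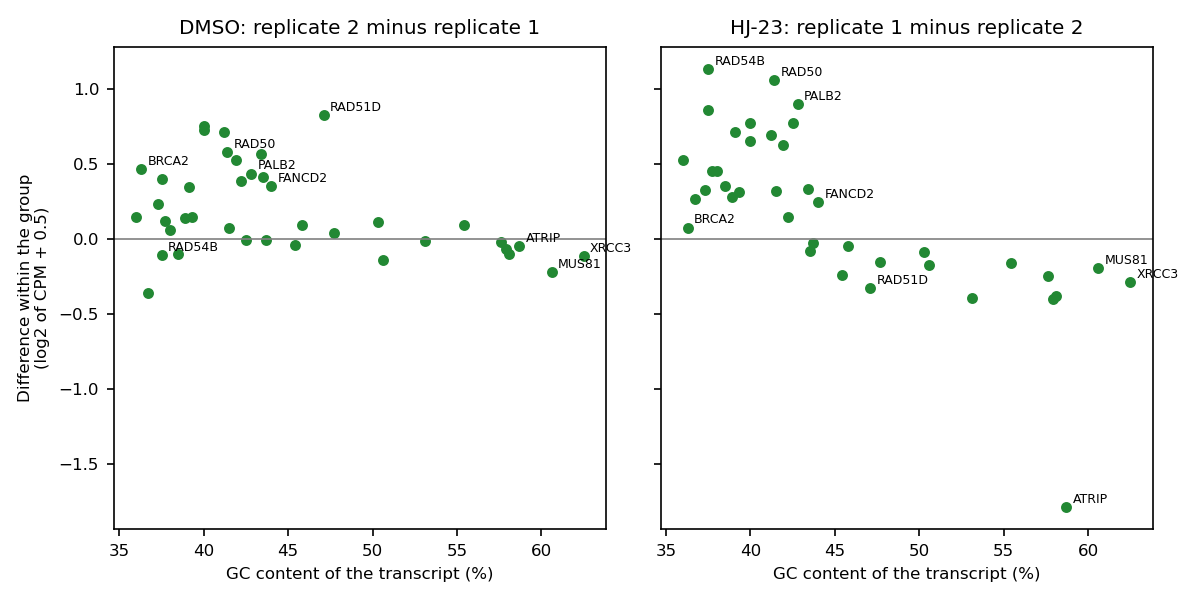
Difference between the 2 libraries of a group (log2 of CPM + 0.5) for each member, against the GC content of its transcript; the left panel is DMSO replicate 2 minus 1 and the right panel HJ-23 replicate 1 minus 2. In the right panel 23 of the 29 members under 50% GC lie above 0 and all 10 at 50% or more below it, with ATRIP far below the rest.

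The members' median GC content was 42.5%, against 50% over all genes tested, and their median length 4153 bases, against 3322. Across all genes the log2 fold change between groups also went with GC content (rho 0.38), and across the members less so (0.19). After the correction those values were -0.017 and -0.13. The value over all genes had to come near 0, because the correction removes each library's trend on GC content. A treatment effect that followed GC content would be removed with that trend. With the correction, 4 members were lower at an unadjusted p below 0.05 (10.3%, against 7.89% of all genes), FANCD2, FANCI, EME1 and XRCC3. As many were higher (10.3%, against 9.86%), RAD51D, RAD51C, CHEK1 and WRN. None of these 8 passed over all genes, with edgeR adjusted p-values from 0.126 to 0.275, and the shares were close to those of all genes.

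**Figure D4:**
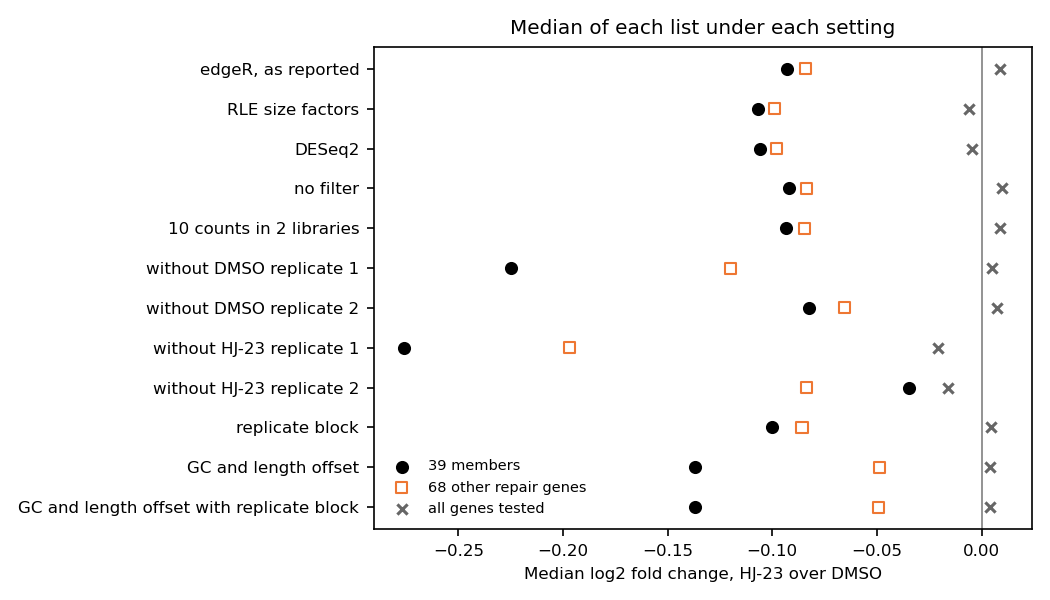
Median log2 fold change of the 39 members, of 68 other repair genes and of all genes tested under each setting. The members' median lies between -0.28 and -0.035, and without HJ-23 replicate 1 it is lowest.

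The other genes of break and crosslink repair, 68 genes of end joining, end protection, checkpoint clamps, resection, junction resolution and lesion bypass, were read in the same way. None passed with edgeR over all genes, 4 were lower and 0 higher at an unadjusted p below 0.05 (5.88% lower, against 5.25% of all genes, and 0 higher, against 6.77%), and the median was -0.084. With the GC content and length correction the median was -0.049, against -0.14 for the members. Of the 68, 41 were negative (60.3%, against 76.9% of the members and 49.0% of all genes). With the correction 37 were (54.4%, against 53.8% and 49.3%). PRKDC, the catalytic subunit of the end-joining kinase, was at 235 and 321 CPM in DMSO and 190 and 143 CPM in HJ-23 (estimate -0.74 on the log2 scale, SE 0.22, adjusted p = 0.320, edgeR). TOPBP1 and CLSPN, which help ATR to activate CHEK1, had values of -0.80 (SE 0.29) and -0.77 (SE 0.25), while CHEK1 itself was at 0.30. RNF168, a ubiquitin ligase of damaged chromatin, was at 64.0 and 65.1 against 49.6 and 49.7 CPM (-0.38, SE 0.14). Highest by p-value were FAAP100 and FAAP20, both partners of the Fanconi core, with 0.57 (SE 0.24) and 0.36 (SE 0.16), CENPS with 0.39 and HROB with 0.37. With the correction PRKDC was at -0.39, TOPBP1 at -0.65, CLSPN at -0.67 and RNF168 at -0.27. On the other side FAAP100 was at 0.32, FAAP20 at 0.16, HROB at 0.22 and CENPS at 0.49. Leaving out single libraries moved FAAP100 between 0.22 and 0.81 and CLSPN between -1.04 and -0.46. None of these 8 passed.

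Cell cycle genes are given beside the members because many members follow the cycle. Summed over 16 genes of G1/S phase the level was 1310 and 1351 CPM in DMSO and 1182 and 1353 CPM in HJ-23. Of these 16, 8 were negative, 6 lay below both controls and 2 above. Over all genes tested those shares were 49.0%, 21.2% and 24.8%. The G1/S values ran from -0.53 (RRM2) to 0.28 (TYMS), with a median of -0.062, or -0.14 with the GC content and length correction. Summed over 18 genes of G2/M phase the level was 1943 and 2399 against 1801 and 1635 CPM. Of these 18, 14 were negative, 9 lay below both controls and 3 above. Their median log2 fold change was -0.43, or -0.34 with the correction. MKI67, the proliferation marker, was at 174 and 254 against 58.4 and 50.5 CPM (-1.97; adjusted p = 0.0735 with edgeR and 1.68e-13 with DESeq2). The list was not of 1 direction: PLK1, a mitotic kinase, was at 122 and 115 against 157 and 178 CPM (0.50, unadjusted p = 0.0123; adjusted p = 0.310, edgeR), and CDC20 and CCNB1 were also above both controls, with 0.297 and 0.20; these 3 were chosen after their values were seen. PCNA, the replication clamp, was at 92.4 and 103 against 100 and 99.1 CPM, and CDKN1A, the cell cycle inhibitor p21, at 290 and 231 against 468 and 660 CPM (1.12; adjusted p = 0.218 with edgeR and 0.000944 with DESeq2). MCM2, CCNE2 and E2F1 had log2 fold changes of 0.16, -0.44 and 0.32. The part of the cell cycle in the values of FANCD2 and FANCI was not tested.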

How the data were processed

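RNA-seq of 4 libraries of HCT116 cells was used, 2 with DMSO and 2 with HJ-23. The deposited values are whole-number counts per Ensembl gene, made by the authors, with totals of 31120459 and 29769568 (DMSO) and 34406649 and 34831207 (HJ-23). RSEM, HISAT2, bedtools, Trimmomatic and FastQC are listed, without roles, in the submitters' processing notes. The sources used here do not name the counter, genome build or strand setting. Among counts of 1 to 8, 69.57% to 72.31% were even, against 49.74% to 50.81% above 50. Whether both reads of a fragment were counted was not tested. If they were, counts of any size would hold fewer independent fragments than reads. The libraries were grouped by their titles.

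Counts were tested as deposited with edgeR 4.0.16 in R 4.3.3 (TMM factors 0.983 to 1.03, filterByExpr, quasi-likelihood F-test with robust dispersion, limma 3.58.1), with Benjamini-Hochberg adjustment over 14062 genes and a threshold of 0.05. The biological coefficient of variation was 19.6%, with 2 residual degrees of freedom and a median of 3.98 prior ones. The standard error is the size of the log2 fold change over the square root of F. Precision is given by these standard errors, which rest on 2 libraries per group. The script was tested on simulated counts that held no trend on GC content or length. That test therefore does not show how well the correction works on these libraries.

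Symbols came from a name table for 20148 genes and from GENCODE 29 for 76, and 39 had none. Length and GC content are those of the longest protein-coding GENCODE 29 transcript, and the correction fits each library's smooth trend on both. The alternatives were other size factors, DESeq2 1.42.0, 2 other filters, each library left out, the replicate number as a block, and the correction with and without it. The members and all lists were chosen with earlier results of these data known. Values in every library were due for members past an unadjusted p of 0.05, for those without overlap and a log2 fold change of 0.5 or more in size, and for the 3 highest and 3 lowest per length. Those of most other members were added to account for the list, and up to 4 other repair genes were named in each direction by p-value.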

Additional observations from a re-analysis of the deposited data

How the results depend on the processing

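With 2 libraries a group, the number of calls depended on the tool and on single libraries, while the members gave few calls under any setting run. Over all genes edgeR called 12 (8 higher, 4 lower), against 311 with DESeq2, 31 without a filter, 33 with the GC content and length correction (23 higher, 10 lower), and 0 to 273 with 1 library left out. The 0 came without either HJ-23 library, where 3501 and 1377 genes had an unadjusted p below 0.05. Of the members DESeq2 called 1, FANCD2, and edgeR 0 under every planned setting, with 3 members at an unadjusted p below 0.05 in the fit as reported. The members' median ran from -0.276 to -0.0345, and that of the other repair genes from -0.197 to -0.0656, with 1 library left out; a group left with 1 library was assumed to vary like the other.

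The labels do not say that replicate numbers mark a shared culture, and same-numbered libraries deviated in opposite directions (correlation -0.237 over 14062 genes). With the replicate block edgeR called 294 genes (136 higher, 158 lower), 0 of them members, and with the correction and the block 0, with 1678 at an unadjusted p below 0.05. A crossed pairing, chosen after seeing the data, gave 966 calls among 14062 genes. Of these, 2 were among the 39 members and 4 among the 68 other repair genes. Neither list's share was above that of all genes.

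Of single members, 46 values under an alternative had the other sign, the cause of which was not tested. NBN was at -0.0045 with RLE size factors and -0.0035 with DESeq2. With the correction alone and with the block added, BARD1 was at 0.1168 and 0.1163, PALB2 at 0.0608 and 0.0268, XRCC2 at 0.0573 and 0.0285, RAD51AP1 at 0.0442 and 0.0414, MRE11 at 0.1995 and 0.2035, RAD50 at 0.1448 and 0.117, RBBP8 at 0.0005 and 0.0112, ATM at 0.1515 and 0.1474, and ATR at 0.246 and 0.2705. With 1 library left out the lowest and highest values were -0.6218 and 0.0926 for ATM, -0.4262 and 0.3829 for ATR, -1.9229 and 0.0982 for ATRIP, -0.2761 and 0.1893 for BARD1, -0.2436 and 0.1431 for FANCG, -0.2198 and 0.1344 for MRE11, -0.1824 and 0.1405 for NBN, -0.608 and 0.3567 for PALB2, -0.7598 and 0.3058 for RAD50, -0.3554 and 0.1884 for RAD51AP1, -0.0344 and 0.1266 for RAD52, -1.1513 and 0.1355 for RAD54B, -0.3197 and 0.0917 for RAD54L, -0.5636 and 0.3006 for RBBP8, -0.5151 and 0.3196 for XRCC2 and -0.1888 and 0.1052 for XRCC3.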
